A study of Mus musculus with 12 samples.

Results

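The insulin-like growth factor (IGF) genes described here are the ligands Igf1 and Igf2, the acid-labile subunit gene Igfals and the binding protein genes Igfbp1 to Igfbp7. They were taken by symbol from a table of 22276 genes, and all 10 were listed, each once and with a value in all 12 libraries. The study sequenced RNA of white fat (WAT), brown fat (BAT), liver and the quadriceps (muscle) from male C57BL/6J mice at 17 wk of age. NCD-veh mice ate a normal chow diet and were gavaged with vehicle. HFD-veh mice ate a high-fat diet from 8 wk of age and were gavaged with vehicle. HFD-ncls mice ate the same high-fat diet and were gavaged weekly with narciclasine (ncls), a plant alkaloid, at 1 mg/kg for 7 wk from 10 wk of age. No engineered allele is named in the labels. Each organ and group had 1 library, how many mice it holds is not given, and the labels do not say whether the 4 organs came from the same mice. With no replicates there is no spread between animals, so no p-value or error is given and every comparison describes these 12 libraries.

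IGF1 and IGF2 act through the IGF1 receptor and circulate bound to proteins that lengthen their life in blood and limit their access to the receptor. Growth hormone drives Igf1 and Igfals in liver. The ligand, IGFBP3 or IGFBP5 and the acid-labile subunit form a complex that circulates in blood. Insulin represses Igfbp1 in hepatocytes, and IGFBP1 is the binding protein known for its rapid response to feeding. Levels are given as FPKM (sequenced fragments per exon kilobase, relative to all mapped fragments of a library), which corrects for transcript length and so allows different genes to be compared. FPKM is a level relative to the RNA of a library and not the output of a whole organ. Summed FPKM differed between organs, from 254403 in HFD-veh BAT to 516221 in NCD-veh liver. Levels of separate organs are therefore not strictly on 1 scale. Fewer cells of a type and less RNA per cell cannot be told apart in these bulk samples.

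The libraries held about 18600000 to 26100000 fragments each, as estimated from the smallest steps in the FPKM values. The organ labels held in the defining markers. Liver had 9999 to 13444 FPKM of Apoa1, muscle had 22749 to 24220 FPKM of Acta1, WAT had 1600 to 2849 FPKM of Adipoq, and Ucp1 was 740 to 770 FPKM in BAT and at most 3.92 FPKM elsewhere. Several libraries also held transcripts typical of another organ. In HFD-veh muscle all 20 genes of a hepatocyte list were over 2-fold higher than in NCD-veh muscle, and their median level was 0.580% of that in HFD-veh liver. The same median was 0.0733% in HFD-veh WAT, 0.238% in HFD-ncls WAT and at most 0.00268% in the other libraries of WAT, BAT and muscle. A fast-twitch myofibre list stood at 1.96% of its muscle level in NCD-veh BAT, 0.779% in HFD-veh BAT and 0.112% in HFD-ncls BAT. The same list stood at 0.0618% in HFD-veh liver and at 0 in the other liver libraries. These values are set beside each member they touch, and the origin of these transcripts was not tested.

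**Figure D1:**
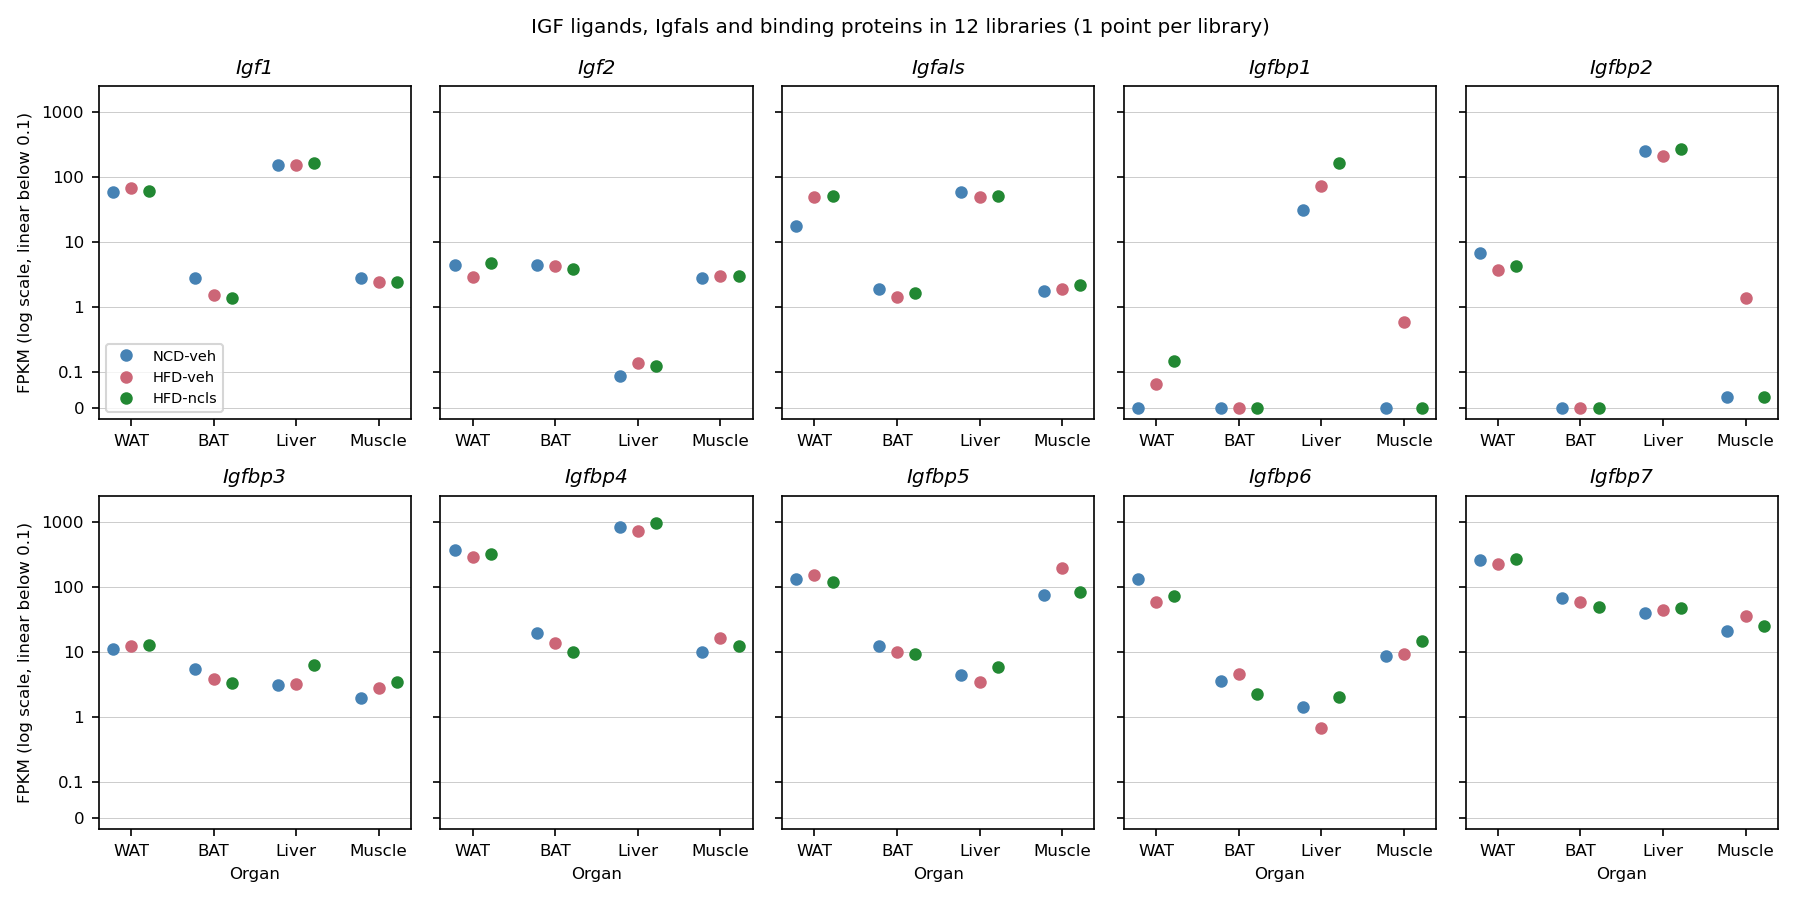
FPKM of each of the 10 genes (y axis, log scale, linear below 0.1 FPKM) in WAT, BAT, Liver and Muscle (x axis), with 1 point per library coloured by group. Igf1, Igfbp1, Igfbp2 and Igfbp4 had all 3 liver points above the points of the other organs, Igfbp3, Igfbp6 and Igfbp7 had all 3 WAT points on top, and Igf2 was lowest in liver.

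The source organ of each gene was described first. Igf1, the main circulating ligand, lies at chr10:87321010-87399792 on the + strand (mm9). In liver its level was 152 FPKM for NCD-veh, 151 FPKM for HFD-veh and 167 FPKM for HFD-ncls, and the values of each organ are given in this order of groups throughout. WAT had 59.0, 67.7 and 61.5 FPKM, so that the liver mean was 2.50 times that of WAT and the ranges did not overlap. BAT (1.37 to 2.82 FPKM) and muscle (2.40 to 2.77 FPKM) overlapped and lay far below.

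Igf2, the ligand of fetal growth that mouse liver silences after birth, lies at chr7:149836673-149852721 on the - strand. It was 4.46, 4.22 and 3.81 FPKM in BAT and 4.43, 2.89 and 4.73 FPKM in WAT. Muscle had 2.84, 3.04 and 2.96 FPKM. These 3 organs overlapped in part, whereas liver had only 0.0896 to 0.140 FPKM, from about 9.94 to 15.0 fragments. Igf2 therefore made up 61.3 to 73.5% of the summed ligand FPKM in BAT and 50.6 to 55.7% in muscle, against 4.09 to 7.15% in WAT and at most 0.0927% in liver. The gene overlaps Mir483 and the antisense gene Igf2as in the annotation, and Igf2as was listed at no more than 0.0401 FPKM in any library.

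Igfals encodes the acid-labile subunit, the third protein of the circulating complex, and lies at chr17:25014600-25018955 on the + strand. Liver had 58.9, 49.8 and 51.9 FPKM. WAT had 17.5 FPKM in NCD-veh but 49.3 and 50.2 FPKM in the HFD-veh and HFD-ncls libraries, so the WAT and liver ranges overlapped. BAT (1.42 to 1.87 FPKM) and muscle (1.76 to 2.17 FPKM) were low.

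Among the binding proteins, Igfbp3 carries most of the IGF in blood together with the acid-labile subunit and lies at chr11:7106089-7113926 on the - strand. It was highest in WAT, at 11.0, 12.3 and 12.8 FPKM. BAT had 5.56, 3.81 and 3.33 FPKM, liver 3.07, 3.21 and 6.32 FPKM, and muscle 1.97, 2.76 and 3.41 FPKM. The last 3 organs overlapped in their ranges. In liver Igfbp3 was at most 6.32 FPKM while its partner Igfals was at least 49.8 FPKM.

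Igfbp5, a matrix-bound binding protein that can also join the complex, lies at chr1:72904506-72921458 on the - strand. WAT had 133, 153 and 118 FPKM. Muscle had 75.3, 194 and 84.3 FPKM, so that the muscle range enclosed that of WAT. BAT (9.21 to 12.3 FPKM) was lower, and liver (3.39 to 5.85 FPKM) was lowest with no overlap between these organs.

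Igfbp1 was close to restricted to liver. It lies at chr11:7097785-7102549 on the + strand, 3539 bases from Igfbp3 on the opposite strand. Liver had 30.7, 72.7 and 162 FPKM, and no other library reached 1 FPKM. It was listed at 0 in all BAT libraries, in NCD-veh WAT and in NCD-veh and HFD-ncls muscle. The highest value outside liver was 0.586 FPKM, in HFD-veh muscle, the library in which the hepatocyte list stood out. Of the summed organ means, liver held 99.7% for Igfbp1.

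Igfbp2, a second liver binding protein, lies at chr1:72871077-72899048 on the + strand, 5457 bases from Igfbp5. Liver had 252, 209 and 267 FPKM. WAT had 6.74, 3.73 and 4.32 FPKM, and BAT was listed at 0 in all 3 libraries. Muscle had 0.0327, 1.4 and 0.0317 FPKM, from about 1.06, 47.9 and 1.06 fragments, so that HFD-veh muscle alone passed 1 FPKM. Liver held 97.8% of the summed organ means.

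Igfbp4, a binding protein cleaved by the protease PAPP-A, lies at chr11:98902558-98913969 on the + strand. It was the most abundant member in liver and in WAT. Liver had 821, 733 and 957 FPKM and WAT had 374, 286 and 318 FPKM, with a liver mean 2.57 times that of WAT. BAT had 19.8, 13.5 and 10.1 FPKM and muscle 10.1, 16.4 and 12.4 FPKM, with overlapping ranges. Igf1 and Igfbp4 thus had the same ranking of liver and WAT, with similar ratios between their means.

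Igfbp6, which binds IGF2 in preference to IGF1, lies at chr15:101974793-101979942 on the + strand. WAT had 131, 58.0 and 71.2 FPKM, and muscle followed at 8.61, 9.14 and 14.6 FPKM. BAT had 3.59, 4.52 and 2.23 FPKM and liver 1.44, 0.677 and 2.02 FPKM. No neighbouring organs in this order overlapped.

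Igfbp7, a relative with low affinity for the ligands that is abundant in vessel walls, lies at chr5:77778265-77837070 on the - strand and overlaps Polr2b on the other strand. WAT had 262, 227 and 270 FPKM. BAT had 68.1, 57.6 and 49.4 FPKM, liver 39.5, 44.0 and 47.9 FPKM, and muscle 21.1, 35.2 and 25.1 FPKM. The order WAT, BAT, liver, muscle held without overlap. Use of strand by the quantification is not given in the sources used here, so reads from overlapping genes cannot be told apart.

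The counts of genes with 1 top organ were read against all 13648 genes that reached 1 FPKM in at least 1 library. All 3 liver libraries lay above the other 9 libraries for 4 of the 10 members, and for 12.2% of all genes. All 3 WAT libraries lay above the other 9 for 3 of the 10 members, which is no more than the background of 45.9%. None of the members had all 3 BAT libraries on top (background 6.16%) or all 3 muscle libraries on top (background 11.0%). Igf2, Igfals and Igfbp5 had no single top organ by this rule. These rankings are of FPKM as given, whose sum per library differed between organs. Close rankings, such as that of Igf2 in BAT and WAT, may depend on this scale.

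**Figure D2:**
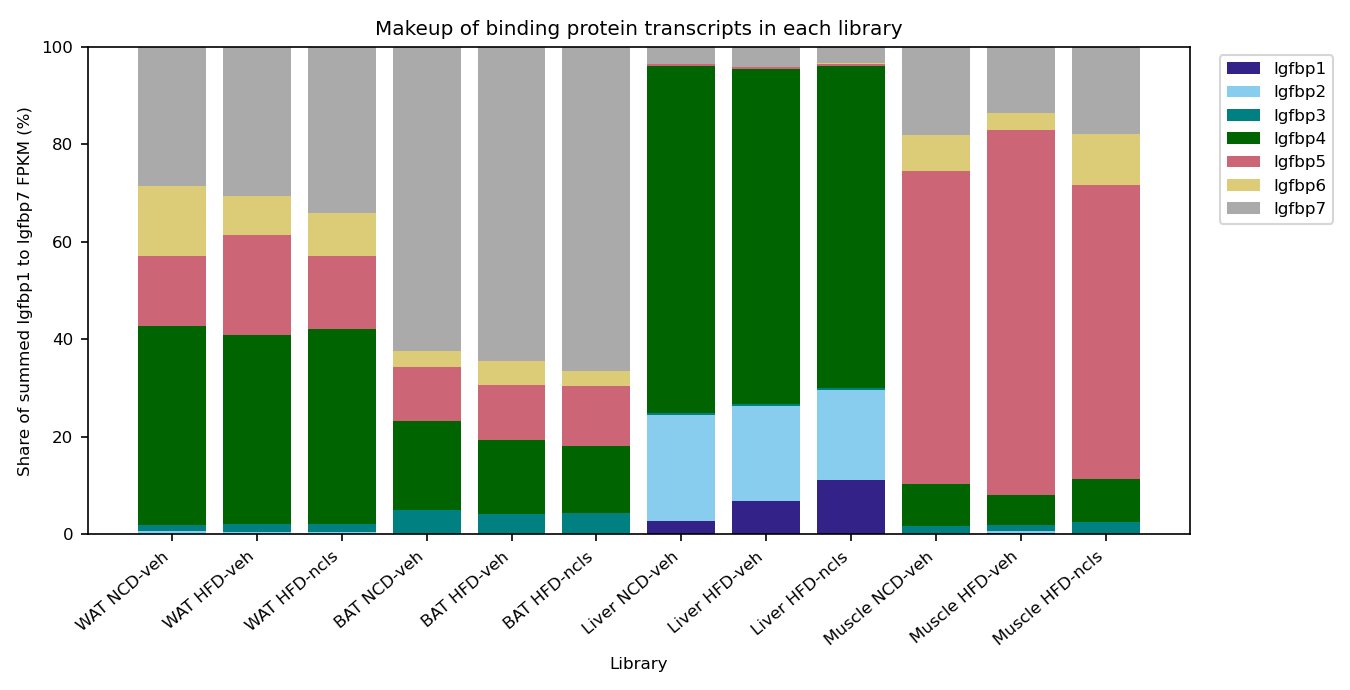
Share of each binding protein gene in the summed FPKM of Igfbp1 to Igfbp7 (y axis, %), with 1 stacked bar per library (x axis). Igfbp4 fills 66.1 to 71.2% of the liver bars, Igfbp5 60.3 to 74.8% of the muscle bars and Igfbp7 62.3 to 66.5% of the BAT bars.

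Each organ had its own mixture of binding protein transcripts. In liver, Igfbp4 made up 66.1 to 71.2% of the summed Igfbp1 to Igfbp7 FPKM and Igfbp2 made up 18.4 to 21.9%. The liver share of Igfbp1 was 2.66% for NCD-veh, 6.82% for HFD-veh and 11.2% for HFD-ncls. WAT was split between Igfbp4 (38.6 to 40.8%), Igfbp7 (28.5 to 34.0%), Igfbp5 (14.5 to 20.7%) and Igfbp6 (7.85 to 14.3%). In BAT the low-affinity Igfbp7 made up 62.3 to 66.5%. In muscle Igfbp5 made up 64.3%, 74.8% and 60.3%.

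Binding protein transcripts exceeded ligand transcripts in every library. Summed Igfbp1 to Igfbp7 FPKM was 7.04 to 8.67 times the summed ligand FPKM in liver, 10.5 to 14.4 times in WAT and 14.4 to 15.5 times in BAT. In muscle the ratio was 20.9 for NCD-veh, 47.6 for HFD-veh and 26.1 for HFD-ncls, and ligand FPKM in the denominator was 5.61, 5.45 and 5.36. The muscle ratio moved with Igfbp5. Without Igfbp7, the mean BAT ratio was 5.33 and was the lowest of the 4 organs, whereas with Igfbp7 liver was lowest with a mean of 7.77.

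**Figure D3:**
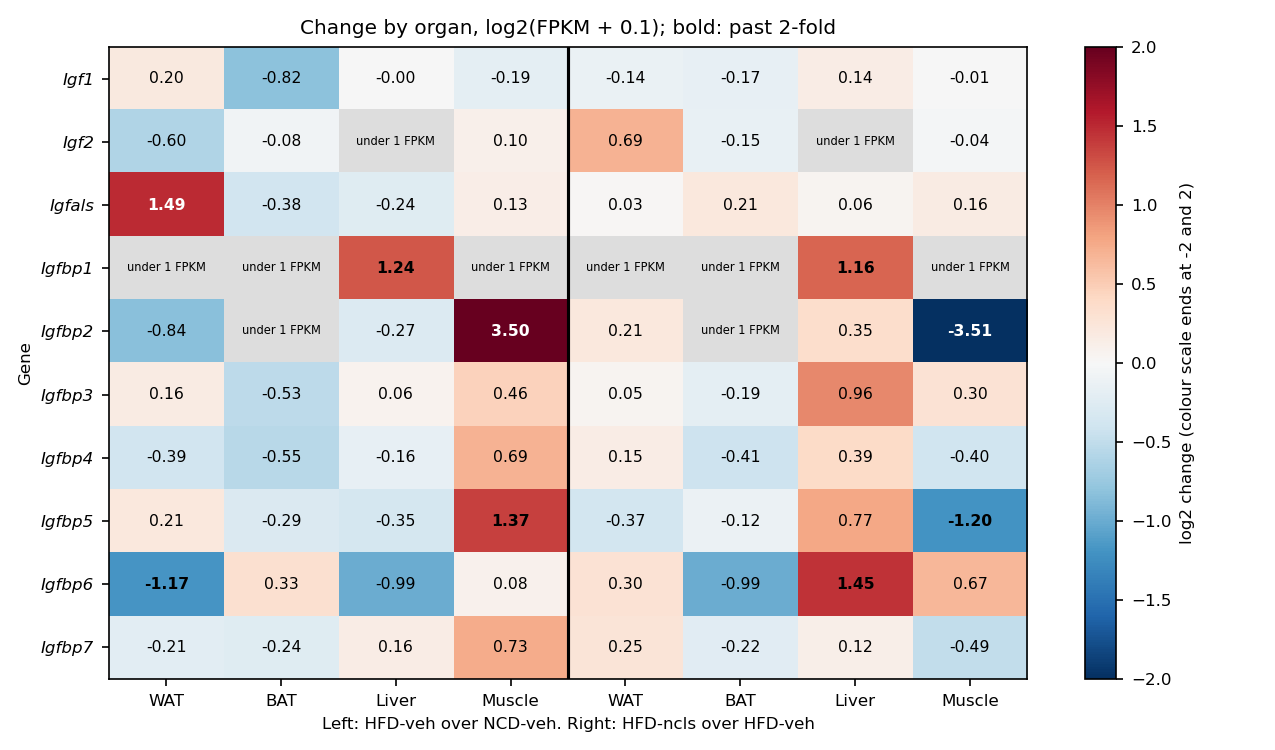
Change of each gene (rows) in each organ (columns) on the log2(FPKM + 0.1) scale, with HFD-veh over NCD-veh on the left and HFD-ncls over HFD-veh on the right. Bold values passed 2-fold and grey cells had under 1 FPKM in both libraries. The values past 2-fold lie in Igfals and Igfbp6 of WAT, Igfbp1 and Igfbp6 of liver, and Igfbp2 and Igfbp5 of muscle.

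The question of how diet and ncls moved these genes was addressed within each organ. A gene was counted as changed when its ratio passed 2-fold on log2(FPKM + 0.1), with an FPKM of at least 1 in 1 of the libraries compared. With this filter 9 of the 10 members were measured in WAT, liver and muscle and 8 in BAT. Igf2 fell under the filter in liver, Igfbp1 in WAT, BAT and muscle, and Igfbp2 in BAT. The comparison of HFD-veh with NCD-veh and that of HFD-ncls with HFD-veh share the HFD-veh library, so an unusual HFD-veh value appears in both with opposite sign.

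In liver, Igfbp1 was 2.37-fold higher in HFD-veh than in NCD-veh and a further 2.23-fold higher in HFD-ncls, so that the HFD-ncls library was 5.29 times the NCD-veh library. With diet it was the only member past 2-fold among 9, where 5.12% of all genes passed. With ncls, Igfbp1 and Igfbp6 passed 2-fold among 9, where 2.31% of all genes passed, but Igfbp6 met the filter only through HFD-ncls, the library where it was high. The other liver-made members moved less. Between HFD-ncls and HFD-veh, Igf1 differed by 0.14, Igfals by 0.06, Igfbp2 by 0.35 and Igfbp4 by 0.39 on the log2 scale.

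The 250 bases before the annotated start of Igfbp1 (RefSeq, GRCm38.p6, + strand, chr11:7197537-7197786) are shown because this member passed 2-fold in liver with diet and again with ncls. Capitals mark TGTTTTG, letters of the kind bound by the insulin-restrained forkhead factors, here read on the other strand and with the first base at position -108 from the start. GRCm38.p6 is a later build than the mm9 of the expression values, and no coordinate was converted.
Igfbp1 upstream: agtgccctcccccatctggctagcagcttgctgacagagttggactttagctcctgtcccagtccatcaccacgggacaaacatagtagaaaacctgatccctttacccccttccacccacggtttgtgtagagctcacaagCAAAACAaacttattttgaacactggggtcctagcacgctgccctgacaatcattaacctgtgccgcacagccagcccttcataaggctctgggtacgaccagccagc
All 10 members matched a RefSeq promoter window, with 16 windows among them, each of 250 bases before and 50 after a start. TGTTTTG occurred on either strand in 6.28% of all 32851 windows and in the Igfbp1 window alone among those of the members. TGTTTAC, a related forkhead motif, occurred in 3.65% of all windows, and TTCNNNGAA, the motif of STAT factors that act under growth hormone, in 8.30%. Both were found in Igfals and in no other member. Its matches are given with capitals for TTCNNNGAA at positions -236 and -58 of separate windows and for TGTTTAC at -242, because Igfals was the only member with these letters, and the Igf1 window held none of the 3 motifs.
Igfals chr17:24877594-24877641: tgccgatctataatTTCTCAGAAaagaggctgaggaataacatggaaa
Igfals chr17:24877981-24878020: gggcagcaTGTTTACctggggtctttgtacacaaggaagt
Igfals chr17:24878148-24878206: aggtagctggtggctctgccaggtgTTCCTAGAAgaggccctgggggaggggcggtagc
A match of letters is a description and does not show binding.

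The other members that differed in liver were of low level. Igfbp6 was 1.44, 0.677 and 2.02 FPKM, from about 37.6, 17.0 and 52.8 fragments. HFD-veh was the low library, 2.13-fold below NCD-veh, which on the scale with the pseudocount was -0.99 and just under the threshold. HFD-ncls was 2.98-fold above HFD-veh. Igfbp3 was 1.97-fold higher in HFD-ncls than HFD-veh (0.96 on the log2 scale, just under the threshold) and Igfbp5 was 1.72-fold higher. The 9 measured members had a median log2 difference of 0.39 between HFD-ncls and HFD-veh liver, beside 0.02 for all genes measured.

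Markers of mesothelium, the cells that line organs, are set beside Igfbp6 in liver. A list of 6 mesothelial genes summed to 3.40, 2.68 and 7.69 FPKM in the liver libraries. Upk3b, which exceeded 1 FPKM in all 3, was 1.22, 1.20 and 2.75 FPKM. Msln (0.961, 0.363 and 1.68 FPKM) and Krt19 (0.702, 0.558 and 1.57 FPKM) passed the filter only through HFD-ncls, the library where they were high. Of 5 measured fibroblast genes, Col1a1 alone was over 2-fold higher, and the fibroblast sum was 72.7 FPKM in HFD-veh and 82.9 FPKM in HFD-ncls. The part of these cells in the Igfbp3, Igfbp5 and Igfbp6 values was not tested.

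In WAT the diet comparison held 2 changed members of 9, Igfals and Igfbp6, where 9.11% of all genes passed 2-fold. Igfals was 2.81-fold higher in HFD-veh than in NCD-veh and stayed at the HFD-veh level with ncls (50.2 against 49.3 FPKM). HFD-veh and HFD-ncls WAT also held transcripts of the hepatocyte list. Igfals at the median share of the hepatocyte list would be 0.0365 FPKM of the 49.3 FPKM in HFD-veh and 0.123 FPKM of the 50.2 FPKM in HFD-ncls. The partner genes did not follow, as Igf1 differed by 0.20, Igfbp3 by 0.16 and Igfbp5 by 0.21 on the log2 scale. The growth hormone receptor gene Ghr, which is upstream of Igfals in liver, was 618, 510 and 437 FPKM in WAT.

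Igfbp6 in WAT was 2.26-fold lower in HFD-veh than in NCD-veh and 1.23-fold higher in HFD-ncls than HFD-veh. The mesothelial list went the same way, with sums of 232, 92.3 and 103 FPKM, and 5 of its 6 genes were over 2-fold lower in HFD-veh than in NCD-veh. Fibroblast genes summed to 1511, 1197 and 1356 FPKM, and 1 of the 7 (Dcn) was over 2-fold lower. The 5 markers of epididymis, a tissue that borders 1 depot of white fat in males, were listed at 0 in all WAT libraries. In muscle, the organ with the next highest Igfbp6 (8.61, 9.14 and 14.6 FPKM), the mesothelial list summed to 0.0629, 0.286 and 0.210 FPKM. In BAT, Igfbp6 was 3.59, 4.52 and 2.23 FPKM and this list summed to 1.38, 0.701 and 0.729 FPKM. The part of mesothelial cells in the WAT level of Igfbp6 was not tested.

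**Figure D4:**
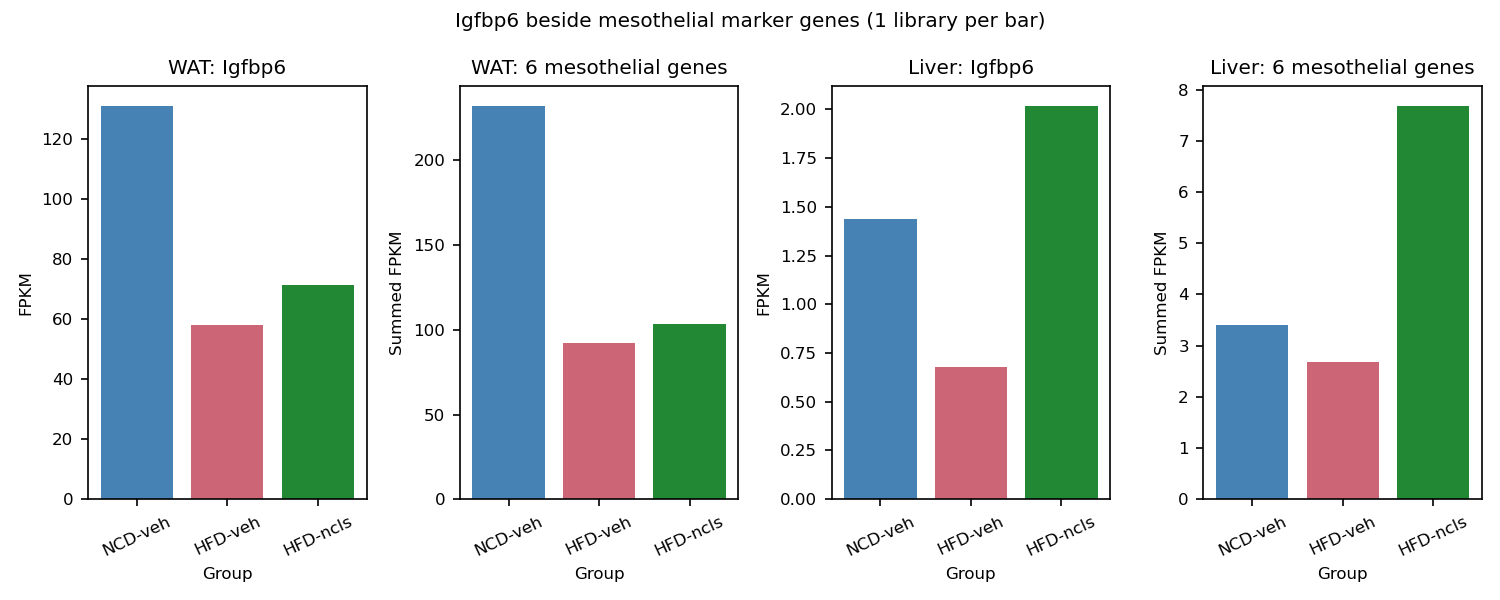
FPKM of Igfbp6 and summed FPKM of 6 mesothelial marker genes (y axes, from 0) in the 3 libraries (x axes) of WAT and of liver. In both organs HFD-veh is the lowest bar for Igfbp6 and for the mesothelial genes, and in WAT both NCD-veh bars are over 2-fold above the HFD-veh bars.

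With ncls, no member passed 2-fold among 9 in WAT, where 1.70% of all genes did. The largest difference was in Igf2, which was 4.43, 2.89 and 4.73 FPKM. HFD-veh was the low library, 1.53-fold below NCD-veh and 1.64-fold below HFD-ncls. Igfbp2 in WAT was 1.81-fold lower in HFD-veh than in NCD-veh and 1.16-fold higher in HFD-ncls than HFD-veh. Igfbp4, the leading WAT binding protein, ranged from 286 to 374 FPKM, a span of 1.31-fold.

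In muscle, Igfbp5 was 2.58-fold higher in HFD-veh than in NCD-veh, and 2.30-fold lower in HFD-ncls than HFD-veh. Of the 9 measured members, 2 passed 2-fold in each comparison, Igfbp5 and Igfbp2, where 4.11% of all genes passed with diet and 3.80% with ncls. Igfbp5 is also among the muscle genes that the study itself picked from these libraries, so its direction here is not independent of that choice. At the hepatocyte share of HFD-veh muscle, Igfbp5 would be 0.0197 FPKM of its 194 FPKM. It stood at 127% of its WAT level in that library, while the median of 8 adipocyte genes was 2.10% of WAT, against 0.768% in NCD-veh and 1.75% in HFD-ncls muscle.

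Slow-twitch transcripts also differed between the muscle libraries, whereas fast-twitch transcripts did not pass 2-fold. The fast-twitch list summed to 112205, 111794 and 107891 FPKM, with none of its 11 measured genes past 2-fold in either comparison. A slow-twitch list of 6 genes summed to 44.4, 6.94 and 47.5 FPKM in the muscle libraries. All 6 genes were over 2-fold lower and then over 2-fold higher, opposite in sign to Igfbp5. Of all genes, 4.11% passed 2-fold with diet and 3.80% with ncls. The study picked the same 6 genes from these libraries, so this count is not independent of that choice. Only 1 of the 6 reached 1 FPKM in HFD-veh. The others met the filter only through NCD-veh or HFD-ncls, the libraries where they were high. Fibroblast genes summed to 109, 101 and 166 FPKM and endothelial genes to 42.5, 47.0 and 45.9 FPKM, and neither sum was over 2-fold higher in HFD-veh than in NCD-veh. The part of the piece of muscle sampled in the Igfbp5 value was not tested. Igfbp7 (1.67-fold) and Igfbp4 (1.62-fold) were also higher in HFD-veh than in NCD-veh muscle without passing 2-fold, and both were lower again in HFD-ncls, by 1.4-fold and 1.32-fold.

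Igfbp2 and Igfbp1 in muscle were highest in HFD-veh, the library in which the hepatocyte list stood out. In HFD-veh muscle, Igfbp2 stood at 0.671% and Igfbp1 at 0.806% of HFD-veh liver, where the quartiles of the hepatocyte list were 0.481 and 0.688%. The log2 difference of Igfbp2 was 3.50 with diet and -3.51 with ncls, and it met the filter only through HFD-veh, the library where it was high. With the hepatocyte share of each liver gene subtracted, Igfbp2 was left at 0.191 FPKM and Igfbp1 at 0.164 FPKM in HFD-veh muscle, both under the filter, and Igfbp5 was the only member past 2-fold in either comparison. Subtraction left 1.54 of 2.41 FPKM for Igf1 and 12.1 of 16.4 FPKM for Igfbp4 in HFD-veh muscle. The part of liver RNA in these values was not tested.

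**Figure D5:**
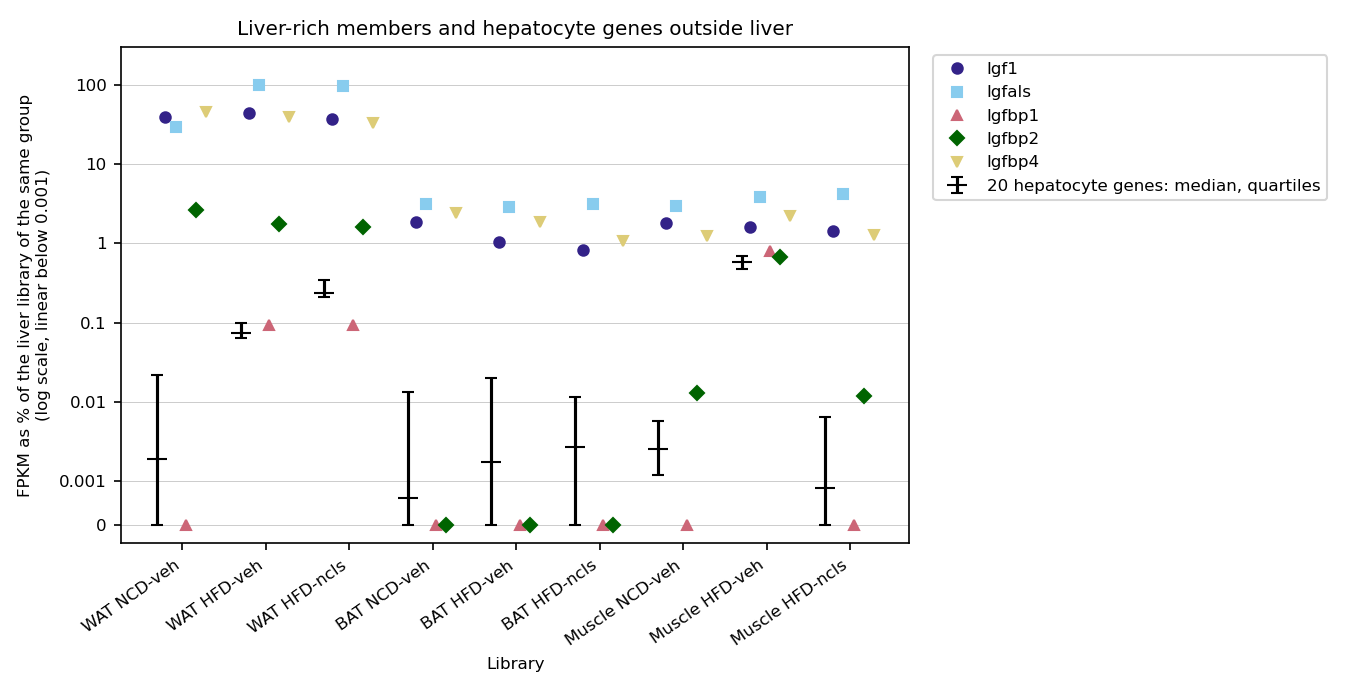
FPKM in each WAT, BAT and muscle library as a percent of the liver library of the same group (y axis, log scale, linear below 0.001%) for Igf1, Igfals, Igfbp1, Igfbp2 and Igfbp4, with the median and quartiles of 20 hepatocyte genes as black bars. In HFD-veh muscle Igfbp1 (0.806%) and Igfbp2 (0.671%) lie beside the hepatocyte median of 0.580%, whereas Igf1, Igfals and Igfbp4 lie above the median in all 9 libraries.

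BAT was the organ with no changed member. Among 8 measured members none passed 2-fold with diet (4.29% of all genes did) and none with ncls (1.96% of all genes did). Igf1 was 1.81-fold lower in HFD-veh than in NCD-veh BAT, and Igfbp3 and Igfbp4 were 1.46-fold and 1.47-fold lower. Igfbp6 was 2.03-fold lower in HFD-ncls than HFD-veh, which on the scale with the pseudocount was -0.99. The 8 members had a median log2 difference of -0.33 between HFD-veh and NCD-veh, beside -0.04 for all genes. The fast-twitch list in BAT summed to 2270, 953 and 136 FPKM, whereas the slow-twitch list summed to 24.0, 29.6 and 3.09 FPKM, and the part of myofibre RNA in these values was not tested.

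The receptors and signalling genes around the family were counted from fixed lists. Igf1r, the receptor of both ligands, was 0.163 to 0.183 FPKM in liver, the organ with the most Igf1. It was 2.75, 2.21 and 2.33 FPKM in WAT and 1.74, 1.27 and 1.34 FPKM in BAT. In muscle it was 1.89, 1.09 and 2.31 FPKM, 2.11-fold higher in HFD-ncls than HFD-veh. It was the 1 of 3 measured receptor genes past 2-fold in that comparison, where 3.80% of all genes passed. No other comparison held a change past 2-fold among Igf1r, Igf2r, Insr and Insrr. Insr, the insulin receptor, was 6.82, 4.80 and 8.07 FPKM in muscle with the same order of libraries as Igf1r, and 10.6, 11.0 and 7.86 FPKM in liver. None of the measured genes among 7 receptor adaptors passed 2-fold in any comparison. Of all genes, 1.70% (WAT with ncls) to 9.11% (WAT with diet) did. Irs1 in WAT was 7.34, 3.70 and 3.82 FPKM and Irs2 in WAT was 16.2, 11.5 and 8.08 FPKM.

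A list of 9 growth hormone signalling genes was counted in each organ. With diet, 2 of 9 measured genes passed 2-fold in WAT, 2 of 7 in BAT, 0 of 8 in liver and 1 of 7 in muscle, beside 9.11%, 4.29%, 5.12% and 4.11% of all genes. With ncls, 0 of 9 passed in WAT, 0 of 7 in BAT, 2 of 8 in liver and 1 of 7 in muscle, beside 1.70%, 1.96%, 2.31% and 3.80%. Cish, a feedback inhibitor that the STAT5 pathway induces, was 2.47, 3.02 and 13.5 FPKM in liver and 4.64, 4.80 and 17.6 FPKM in muscle, so that HFD-ncls was the high library in both (4.46-fold and 3.67-fold over HFD-veh). In WAT it was 6.73, 2.23 and 2.0 FPKM and in BAT 1.84, 7.71 and 12.1 FPKM. Socs2, another feedback inhibitor, was 11.7, 6.38 and 11.6 FPKM in liver and 3.25, 3.43 and 6.69 FPKM in muscle, with HFD-ncls at 1.82 and 1.95 times HFD-veh, which did not pass 2-fold. Socs3 was 6.27-fold higher in HFD-veh than in NCD-veh BAT (0.431 and 2.70 FPKM) and 3.33-fold higher in muscle (0.409 and 1.36 FPKM). In both organs it met the filter only through HFD-veh, the library where it was high. Prlr, the prolactin receptor, was 2.61-fold lower in HFD-veh than in NCD-veh WAT and 2.33-fold lower in HFD-ncls than HFD-veh liver. Ghr did not pass 2-fold in any organ, and was 169, 214 and 184 FPKM in liver. Beside the Cish difference in liver and muscle, Igf1 differed by 0.14 and -0.01 and Igfals by 0.06 and 0.16 on the log2 scale.

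A list of 8 genes held proteases that cleave binding proteins and inhibitors of these proteases, of which Pappa and Pappa2 did not reach the filter in any organ. With diet, 2 of the 6 measured in WAT passed 2-fold (9.11% of all genes did) and 1 of the 4 measured in BAT (4.29% of all genes did). Adam12, a protease of IGFBP3 and IGFBP5, was 3.02, 18.3 and 12.1 FPKM in WAT, 6.07-fold higher in HFD-veh than in NCD-veh. Stc1, an inhibitor of PAPP-A, was 2.19-fold higher in HFD-veh than in NCD-veh WAT (0.557 and 1.22 FPKM). It met the filter only through HFD-veh, the library where it was high. Adamts1 was 2.14-fold higher in HFD-veh than in NCD-veh BAT. Pappa, which codes for PAPP-A, was at most 0.110 FPKM in any library. With ncls, none of the measured genes of this list passed 2-fold in any organ, where 1.70 to 3.80% of all genes did.

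H19, the maternally expressed non-coding neighbour of Igf2, did not move with Igf2. In muscle it was 107, 47.6 and 69.3 FPKM while Igf2 was 2.84 to 3.04 FPKM. In BAT it was 18.2, 2.95 and 0.395 FPKM, 6.19-fold lower in HFD-veh than in NCD-veh and 7.45-fold lower again in HFD-ncls, while Igf2 was 3.81 to 4.46 FPKM. H19 in BAT stood at 17.0%, 6.19% and 0.570% of muscle, above the fast-twitch list in each group (1.96%, 0.779% and 0.112%). The part of muscle RNA in the H19 level of BAT was not tested.

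A list of 8 genes was set beside liver Igfbp1. It holds genes that insulin represses in hepatocytes through forkhead factors, and also Foxo1 and Foxo3, which encode such factors. Its counts are therefore not of insulin-repressed genes alone. G6pc, the glucose-6-phosphatase, was 161, 295 and 323 FPKM in liver and Pck1, of gluconeogenesis, was 1048, 850 and 798 FPKM. Neither passed 2-fold in liver. With diet, 1 of the 8 genes of this list passed 2-fold in liver, where 5.12% of all genes did. That gene was Cdkn1a, 7.16-fold lower in HFD-veh than in NCD-veh, opposite in sign to Igfbp1. Of the 8 genes, 4 were higher in HFD-veh than in NCD-veh liver. Among them Foxo3 was 1.92-fold higher (2.49 and 4.78 FPKM), under the threshold. None of the 8 passed 2-fold between HFD-ncls and HFD-veh liver, where 2.31% of all genes did. In muscle, G6pc was listed at 0, 2.68 and 0.0349 FPKM, with the hepatocyte transcripts, and Pck1 was 4.89, 12.6 and 5.89 FPKM. Of the 8 genes, 3 were over 2-fold higher and 2 over 2-fold lower in HFD-ncls than HFD-veh muscle. In that comparison 3.80% of all genes passed in either direction. Foxo3, Sesn1 and Angptl4 were 2.26-fold, 2.03-fold and 2.04-fold higher. Pck1 and G6pc were the lower genes, and G6pc met the filter only through HFD-veh, the library where it was high.

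For each member the 3 genes nearest to it in pattern were named by Pearson's r on log2(FPKM + 0.1) over the 12 libraries, which mainly share their organ, so the r is a description. Igf1 was nearest to Ptprf (r = 0.997), Igfbp4 and Egfr, and Igfbp4 was nearest to Ptprf (0.996), C1rb and Igf1. Igf1 and Igfbp4 were the only members among each other's nearest genes. Igfbp1 was nearest to Keg1 (0.996), Upp2 and Serpina12, and Igfbp2 to Cfhr2 (0.999), Gm4788 and Mettl7b, which are all liver-rich here. Igfals was nearest to Txndc15 (0.993), Anpep and Phactr4. Anpep, an aminopeptidase, shared the WAT pattern of Igfals with 14.9, 36.6 and 45.3 FPKM. Igfbp6 was nearest to Nbl1 (0.989), Sfrp2 and Ogn, and Ogn in WAT was 82.5, 37.5 and 40.4 FPKM. Igf2 was nearest to Ppp1r1a (0.990), Tspan13 and Zdhhc1, Igfbp3 to Mmp23 (0.968), Dctn2 and Scand1, Igfbp5 to Rab21 (0.986), Atp6v0e2 and Cd99l2, and Igfbp7 to Bag5 (0.991), Endod1 and Ilk.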

How the data were processed

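The data are RNA-seq values of WAT, BAT, liver and muscle under 3 treatments, in 12 libraries of which each is 1 organ and group. The FPKM values were deposited by the authors, who used TopHat with the mm9 genome and Cufflinks with RefSeq genes. Each gene symbol has 1 row. A setting for strand and a scaling between libraries are not given in the sources used here. All 12 value columns were assigned to a library from its title, and 86 symbols that lack a value in at least 1 library were left out where it was missing.

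Ratios were taken on log2(FPKM + 0.1) for genes with at least 1 FPKM in at least 1 of the libraries compared, and 2-fold was the threshold. No statistical test was run, because each group had 1 library per organ. Such differences understate the change of genes of low level. The members and gene lists were chosen with earlier results of these data known. The genes named are all members, the listed pathway genes past 2-fold, Igf1r, Ghr, Insr, Irs1, Irs2, Socs2, Pck1 and G6pc, the 3 genes nearest to each member and the defining organ markers. A few others (Pappa, Pappa2, Htra3, Igf2r, Insrr, Igf2as, Msln, Upk3b, Krt19, Col1a1 and Dcn) were named after their values were seen. Fragments per library were estimated from the smallest step of FPKM times transcript length in 143 to 185 genes, and are approximate. The hepatocyte share is the median over 20 genes of FPKM as a percent of the liver library of the same group. Positions are of mm9 with GENCODE M1. Promoter windows came from RefSeq (GRCm38.p6), and protein sequences were not used here. Alternatives covered the pseudocount, the filter, the threshold, Spearman's rho, rescaling of each library by its median ratio, leaving out Igfbp7 and subtraction of the liver share. The language was Python 3.11.15, with pandas 2.3.3 for tables, numpy 2.4.6 and scipy 1.17.1 for calculation and matplotlib 3.10.9 for plots.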

Additional observations from a re-analysis of the deposited data

Results flagged for a closer look

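Among the pathway lists, 3 genes differed in opposite directions between organs in the diet comparison, past 2-fold in each. The difference between organs was not tested, since each organ and group had 1 library. Cdkn1a, a cell-cycle inhibitor, was 2.98 higher on the log2 scale in HFD-veh than in NCD-veh WAT and lower in liver, with a log2 value of -2.76, so that the organs differed by 5.73. Pck1 had a log2 value of 1.35 in muscle and -2.57 in WAT, a difference of 3.92. The HFD-veh muscle library is the one in which the hepatocyte list stood out. Cish had a log2 value of 2.01 in BAT and -1.55 in WAT, a difference of 3.56. No member of the IGF family passed 2-fold in opposite directions in separate organs of the same comparison.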

How the results depend on the processing

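No paired analysis was possible because each organ and group had 1 library and the labels give no replicate numbers. Of 444 values of single members under the alternatives, 426 kept their direction and their side of the threshold, 17 newly passed it, 1 no longer did and 0 reversed. Of the counts of members past the threshold, those below moved by over 1.5 times. The share of all genes at these settings is not given, so these counts are not read as a result about the members. A looser threshold passes more genes of any kind. With diet in WAT, 22.0% of all genes changed at least as much as Igf2 (-0.60 on the log2 scale). At a threshold of 1.4-fold the diet counts were 4 in WAT, 3 in BAT, 2 in liver and 4 in muscle, and the ncls counts were 1 in WAT, 1 in BAT, 4 in liver and 4 in muscle. With a pseudocount of 0.01 FPKM the diet count in liver was 2 and the ncls count in BAT was 1, and rescaling by the median ratio also gave 2 for diet in liver, each time through Igfbp6. With a filter at 5 FPKM the counts were 1 for diet in muscle, 1 for ncls in liver and 1 for ncls in muscle, because fewer genes were measured. A pseudocount of 1 FPKM left 1 for ncls in liver, Igfbp1. Subtraction of the liver share left 1 in muscle for diet and 1 for ncls, Igfbp5 in both. Without Igfbp7 the mean ratio of binding protein to ligand FPKM in BAT was 5.33. Spearman's rho of Igf2 with Ppp1r1a was 0.655 against an r of 0.990. Igfbp6 in liver and Igfbp1 and Igfbp2 outside liver rest on few fragments, and 1 library per group leaves the spread between mice unknown.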

Other observations

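A list of 9 genes held secreted proteins that share the IGFBP domain but are not counted among the binding proteins. Of those measured with diet, 1 of 6 passed 2-fold in WAT and 1 of 4 in BAT (9.11% and 4.29% of all genes did). In liver 0 of 2 and in muscle 0 of 4 passed (5.12% and 4.11% of all genes). With ncls, 1 of 7 passed in WAT, 0 of 4 in BAT, 2 of 3 in liver and 1 of 5 in muscle. The shares of all genes were 1.70%, 1.96%, 2.31% and 3.80%. Ctgf, a matrix signalling protein, was over 2-fold above HFD-veh in the HFD-ncls libraries of WAT (11.1 and 26.9 FPKM), liver (1.37 and 3.56 FPKM) and muscle (2.29 and 5.33 FPKM), and was 1.37 and 0.751 FPKM in BAT. Wisp2 was 1.90, 10.7 and 13.8 FPKM in WAT of NCD-veh, HFD-veh and then HFD-ncls mice, and Cyr61 was 10.1, 27.0 and 17.8 FPKM in BAT. Esm1, a product of endothelial cells, was 0.206, 0.150 and 1.01 FPKM in liver. It met the filter there only through HFD-ncls, the library where it was high. Htra3 was 153 to 172 FPKM in WAT and did not pass 2-fold there.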
